A study of Homo sapiens with 14 samples.

Results

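The 45 genes described here encode the working parts of Wnt and beta-catenin signalling, from the secreted ligands and their receptors to the complex that destroys beta-catenin and the nuclear proteins that act with it. They are the genes of a list of names, drawn up by role and with earlier results of these data known, and all 45 were found among the 63140 genes of the count table and among the 18321 genes with enough counts to be tested. RNA was sequenced in bulk from HEK293T cells, a line of human embryonic kidney origin with the SV40 large T antigen, in 14 libraries made 24 h after a transfection. AllStars, a negative control siRNA, was given to the control cells (5 libraries). The microRNA miR-34a was given as an unmodified duplex, called miR-34a-WT (5 libraries), or as an abasic duplex, called miR-34a-RS, in which rSpacer, a residue with a backbone but no base, takes the place of guide residues 13 and 14 (4 libraries, numbered 1, 2, 3 and 5). The design asked how far a microRNA's action depends on pairing outside the seed, the guide's bases 2 to 8. All groups are the same cell line and all were transfected, and no group was left without a duplex. The labels do not say that the libraries of a group came from separate cultures, so the p-values measure the spread between libraries, which may be technical, and in bulk RNA fewer cells with a transcript and less of it per cell cannot be told apart.

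Wnt ligands are lipid-modified in the secretory pathway and bind a Frizzled receptor together with the co-receptors LRP5 or LRP6. Without ligand, a complex built on Axin and APC holds beta-catenin for phosphorylation by CK1 and GSK3, after which it is ubiquitinated and degraded. With ligand, Dishevelled proteins block that complex, and beta-catenin accumulates, enters the nucleus and activates genes together with the LEF1 and TCF DNA-binding proteins. The ubiquitin ligases ZNRF3 and RNF43 remove Frizzled from the surface, and R-spondins acting through LGR4 or LGR5 relieve that removal. Several pathway genes, AXIN2, LEF1, LGR5, ZNRF3, RNF43, NKD1 and DKK1 among them, are also known in many cell types as genes that beta-catenin activates.

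The guide is printed first with every 8mer and 7mer-m8 match in the 3′ UTRs of the 45 genes, whether or not the gene fell, because the results are later counted by these matches. The 7mer-A1 of ZNRF3 is added, chosen after its values were seen. The guide is written with its seed in capitals and comes from RefSeq (GRCh38.p14, chr1:9151735-9151756, minus strand). Its 4 seed matches are the 8mer CACTGCCA, the 7mer-m8 CACTGCC, the 7mer-A1 ACTGCCA and the 6mer ACTGCC, searched on the transcript strand in the longest annotated 3′ UTR of each gene, with each site counted once as its longest match. Windows end with the match, are drawn from GENCODE 29 transcripts with GRCh38 coordinates, and show the matching bases in capitals, together with the bases AGCT that can pair with guide positions 13 to 16 where they lie at a suitable distance. All windows of the first list lie in 3′ UTR exons.
hsa-miR-34a-5p: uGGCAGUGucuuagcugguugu
LGR4 7mer-m8, chr11:27367763-27367792, minus strand: atctgggaagcacttctgtaatCACTGCCt
LGR4 8mer, chr11:27366556-27366585, minus strand: tgtgctaaatcaatagcaaaccCACTGCCA
LGR5 8mer, chr12:71585504-71585533, plus strand: cccaaAGCTcagaagggaattcCACTGCCA
LEF1 8mer, chr4:108048561-108048590, minus strand: gacgctgatccataaagacaatCACTGCCA
TCF7 8mer, chr5:134146871-134146900, plus strand: tctacccatctcccccatccccCACTGCCA
AXIN2 7mer-m8, chr17:65529130-65529159, minus strand: gggccctgaggcctgctagaatCACTGCCg
PYGO2 7mer-m8, chr1:154957584-154957613, minus strand: ttgtctttttttattttttaagCACTGCCt
BCL9L 7mer-m8, chr11:118897000-118897029, minus strand: tctgtgcccacccaggcacagcCACTGCCt
BCL9L 7mer-m8, chr11:118894703-118894732, minus strand: tgttggaaggagcatccagcatCACTGCCt
KREMEN1 7mer-m8, chr22:29144185-29144214, plus strand: ctacctcccccaagccctgagcCACTGCCt
NKD1 7mer-m8, chr16:50637761-50637790, plus strand: gccattccagaggagcagttgcCACTGCCc
RNF43 7mer-m8, chr17:58352591-58352620, minus strand: atccagagggagacagtggattCACTGCCc
FZD4 7mer-m8, chr11:86951000-86951029, minus strand: aattaagtgacccccgtcaaccCACTGCCt
DKK1 7mer-m8, chr10:52317055-52317084, plus strand: aattatttttctaaaggtgctgCACTGCCt
CTNNBIP1 7mer-m8, chr1:9849811-9849840, minus strand: accgttaggcgggatttatgtgCACTGCCt
CTNNBIP1 7mer-m8, chr1:9849395-9849424, minus strand: cggaggcccatgccctccactcCACTGCCt
ZNRF3 7mer-A1, chr22:29053966-29053995, plus strand: aatatatattttaaagaaccctaACTGCCA

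An 8mer was present in the 3′ UTR of 4 of the 45 genes (LGR4, LGR5, LEF1 and TCF7), against 6.02% of the 13611 tested genes with an annotated 3′ UTR. A 7mer-m8 was the longest match in 9 (RNF43, FZD4, DKK1, KREMEN1, NKD1, AXIN2, BCL9L, PYGO2 and CTNNBIP1), against 11.7%. A 7mer-A1 was the longest in 5 (ZNRF3, FZD1, FZD3, FZD5 and CSNK1A1), against 6.04%, and a 6mer in 5 (LRP6, WNT5B, GSK3B, BTRC and TLE1), against 11.4%. The other 22, 48.9% of the 45, held none of the 4 words, against 64.9%. LGR5 was the only one of the 45 with AGCT 1 to 15 bases upstream of an 8mer or 7mer-m8 in the 3′ UTR. It had 13 bases between the partners of guide positions 8 and 13, and 9.24% of the 2413 tested genes with such a 3′ UTR match had AGCT in that range. A match of letters is a description and was not tested as a binding site here.

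Coding sequences were searched for the 2 longer matches after the values had been seen, and 10 of the 45 genes held one, against 18.6% of all tested genes with a 3′ UTR. Of those 10 genes 5 fell with each duplex and none rose, while of all tested genes with such a coding match 38.2% fell under the unmodified and 31.5% under the abasic duplex. The 5 were not the same genes, since FZD2 passed only with miR-34a-WT and CSNK1A1 only with miR-34a-RS, a call lost in 13 of 16 alternative settings. All of the 10 but BCL9, FZD2 and FZD7 also hold a match in the 3′ UTR. The windows of the 3 genes with a coding 8mer follow. BCL9 and ZNRF3 fell with both duplexes and RNF43 passed with neither, while of all 943 tested genes with a coding 8mer the share that fell was 40.4% for the unmodified and 33.2% for the abasic duplex. BCL9 has none of the 4 matches in its 3′ UTR, ZNRF3 has a 7mer-A1 and 2 sites of the 6mer class there, and RNF43 has the 7mer-m8 above.
ZNRF3 8mer, chr22:29050907-29050936, plus strand: aggacactcaggagtccagcacCACTGCCA
BCL9 8mer, chr1:147620430-147620459, plus strand: cctgctcagcagaagatggtgcCACTGCCA
RNF43 8mer, chr17:58357488-58357517, minus strand: gggcaggccatgcccttatccgCACTGCCA

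Libraries held 22.24 to 36.26 M counts, and the first principal component, with 67.4% of the variance, put the 5 control libraries on one side and the 9 microRNA libraries on the other. The 8 marker genes listed for an embryonic kidney line were all above 1 CPM (read counts scaled by library size) in every group, with a summed level of 1129 to 1187 CPM in control, 1038 to 1068 CPM with miR-34a-WT and 1039 to 1084 CPM with miR-34a-RS. Of the 6 blood cell markers, PTPRC, CD3E, HBB and ITGAM were under 0.1 CPM, with a summed level of 2.44 to 3.63 CPM over all libraries, and of the 6 fibroblast markers COL1A2 and DCN were under 0.1 CPM. The fibroblast markers summed to 26.04 to 35.5 CPM in control, 27.99 to 32.4 CPM with miR-34a-WT and 28.7 to 34.6 CPM with miR-34a-RS, with 3, 2 and 2 of the 6 at 1 CPM or more, and of the 4 tested 2 fell and none rose with each duplex (log2 fold changes down to -1.58 and -1.41). The part of such cells in the results was not tested. The library kit does not mark strand. The values of FZD4, TCF7, RNF43, DKK1 and FZD6 are therefore uncertain, since exons of another gene lie on the opposite strand with counts equal to 96.5%, 54.9%, 23.4%, 18.4% and 6.88% of the gene's own, and for the other 9 genes with such a neighbour the share was under 2%.

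Against control, more of these genes fell than rose with either duplex, and the falls were the larger changes. With miR-34a-WT, 14 of the 45 fell, 7 rose and 24 did not pass (quasi-likelihood test of edgeR, Benjamini-Hochberg adjusted across the tested genes, threshold 0.05). That is 46.7% called, against 40.2% of all 18321 tested genes (21.3% lower and 18.9% higher) and 52.1% of those with a mean of at least 5 CPM, so the share called is near the background. Falls of at least 0.5 on the log2 scale were found in 10 of the 45, against 7.69% of all tested genes, and a rise of that size in 1, against 3.4%. With miR-34a-RS, 15 fell, 7 rose and 23 did not pass, 48.9% called against 34.6% of all tested genes (18.4% lower and 16.2% higher) and 45% of those with at least 5 CPM. Falls of at least 0.5 were found in 5, against 6.24%, and no rise reached that size, against 3.3%. The libraries did not overlap with control for 18 of the 45 with miR-34a-WT, against 28.9% of all tested genes, and for 20 with miR-34a-RS, against 27%. The median log2 fold change over the 45 was -0.10 for the unmodified duplex, -0.09 for the abasic one, and over all tested genes -0.02 and -0.01. Both comparisons use the same 5 control libraries, so their values stand side by side below and are not independent of each other.

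**Figure D1:**
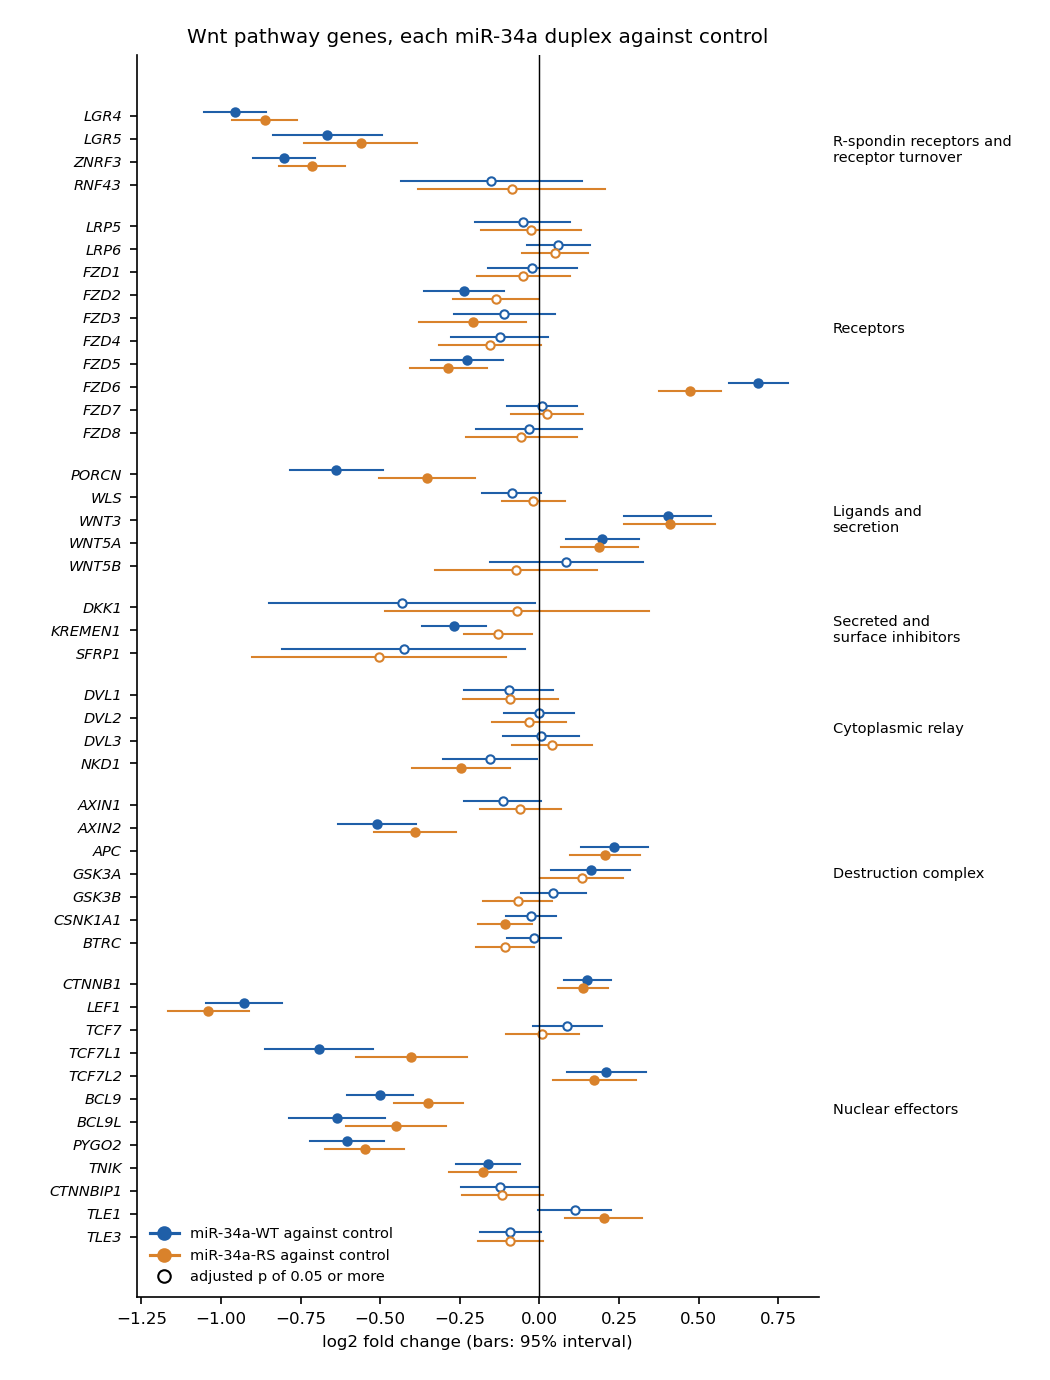
Log2 fold change of each of the 45 genes (x axis) by role, for miR-34a-WT (blue) and miR-34a-RS (orange) against control; bars are 95% intervals, filled points have an adjusted p under 0.05 and open points do not. LGR4, ZNRF3 and LEF1 lie farthest to the left with both duplexes, and FZD6 farthest to the right.

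The receptors and ligases that set how much Frizzled stays on the surface held the steepest falls outside the nucleus. LGR4, a receptor for R-spondins, was at 61.9, 60.9, 61.2, 62.2 and 60.6 CPM in control, 31.4, 32.6, 32.9, 30.4 and 30.96 CPM with miR-34a-WT and 37.2, 33.2, 31.6 and 32.98 CPM with miR-34a-RS. All 9 microRNA libraries were below all 5 control libraries, and the values within each group were close together. The log2 fold change was -0.96 (SE 0.05, adjusted p = 2.23e-14) with miR-34a-WT and -0.86 (SE 0.05, adjusted p = 6.57e-13) with miR-34a-RS, a change of -48.4% and -45.03% from control. Its 3′ UTR holds both an 8mer and a 7mer-m8.

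LGR5, the related R-spondin receptor known as a marker of intestinal stem cells, was much scarcer. Its level was 7.85, 8.67, 7.85, 7.98 and 8.13 CPM in control, 5.15, 5.48, 5.97, 4.69 and 4.26 CPM with miR-34a-WT and 5.68, 5.29, 5.32 and 5.66 CPM with miR-34a-RS. The groups did not overlap, and the lowest value was in miR-34a-WT replicate 5. LGR5 fell by 0.67 (SE 0.08, adjusted p = 4.11e-07) with miR-34a-WT and by 0.56 (SE 0.09, adjusted p = 1.24e-05) with miR-34a-RS on the log2 scale. LGR5 is the only gene of the 45 with the full AGCT word at that distance from an 8mer or 7mer-m8 in its 3′ UTR. Shorter pairing with the replaced guide residues was not searched, nor was pairing upstream of 7mer-A1 and 6mer sites. In coding sequence, a 7mer-m8 of BCL9 also has AGCT a few bases upstream, and coding matches were not counted by that word. The LGR5 level under the abasic duplex exceeded that under the unmodified one by 0.10 on the log2 scale (95% interval -0.08 to 0.29, adjusted p = 0.7198). That difference did not pass, and its interval spans 0.

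ZNRF3, the membrane ubiquitin ligase that R-spondins neutralise, was at 55.2, 57.2, 57.4, 56.5 and 53.01 CPM in control, 31.3, 30.5, 34.97, 32.1 and 31.3 CPM with miR-34a-WT and 35.7, 34.7, 33.3 and 32.6 CPM with miR-34a-RS. Again no microRNA library reached the lowest control library. It fell by 0.80 (SE 0.05, adjusted p = 6.10e-13) with miR-34a-WT and by 0.71 (SE 0.05, adjusted p = 2.38e-11) with miR-34a-RS on the log2 scale, and the longest match in its 3′ UTR is a 7mer-A1, a class whose tested genes had a median of -0.06 and -0.08. RNF43, the other ligase of this pair, averaged 1.92 ± 0.358 CPM in control, 1.72 ± 0.253 CPM with miR-34a-WT and 1.79 ± 0.0706 CPM with miR-34a-RS (mean ± SD, n = 5, 5 and 4). The RNF43 groups overlapped, neither comparison passed (log2 fold change -0.15 and -0.09), and at that level the 95% interval with miR-34a-WT ran from -0.43 to 0.13.

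**Figure D2:**
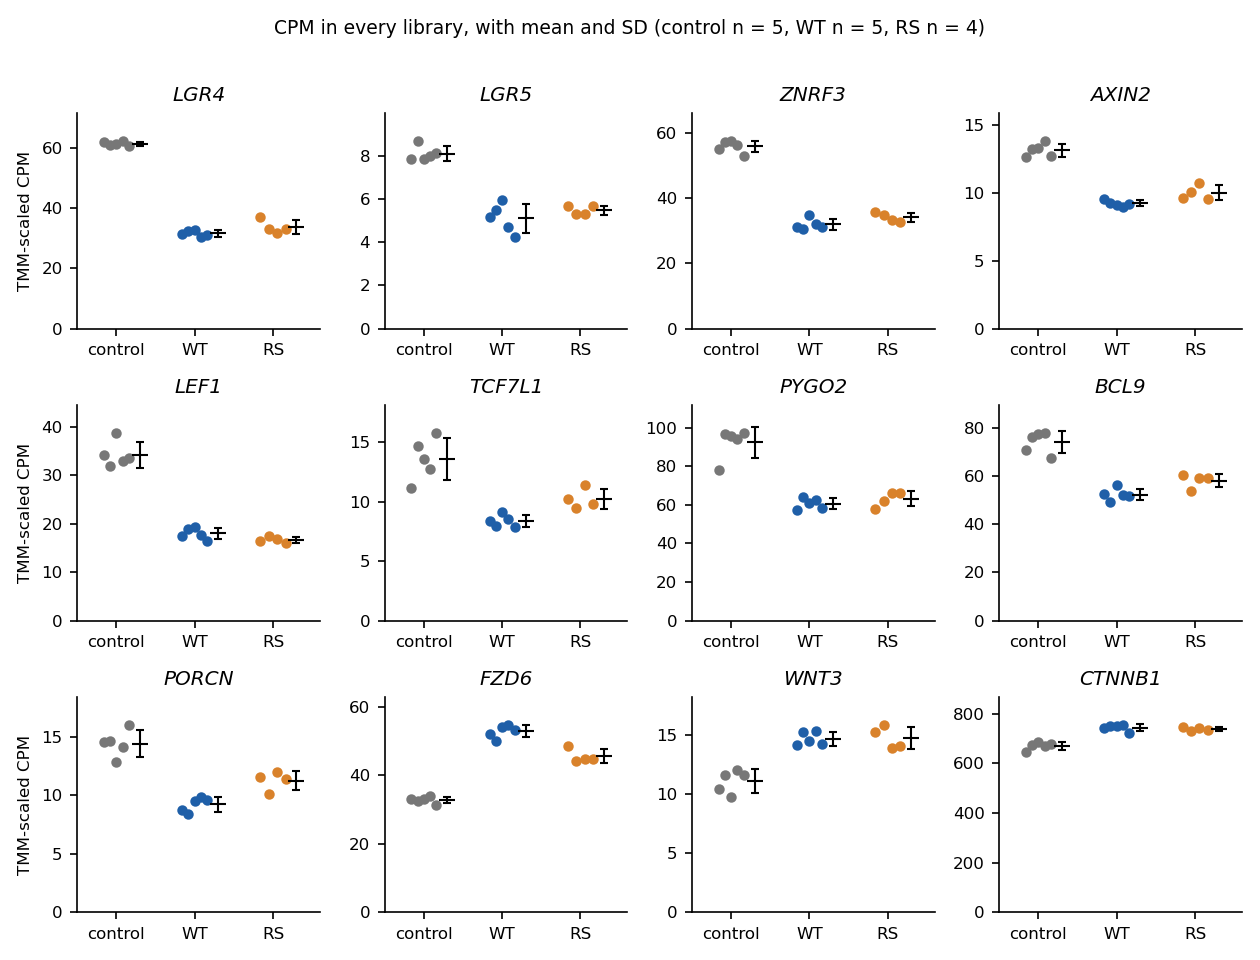
TMM-scaled CPM (y axis, from 0) of 12 genes in every library of control (grey), miR-34a-WT (WT, blue) and miR-34a-RS (RS, orange), with mean and SD in black. LGR4, ZNRF3 and LEF1 drop with both duplexes without overlap, PORCN and TCF7L1 drop further with WT than with RS, and FZD6, WNT3 and CTNNB1 lie higher than control.

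Of the 10 Wnt receptors and co-receptors, 2 fell and 1 rose with each duplex, 30% called against 40.2% and 34.6% of all tested genes. FZD6, a Frizzled receptor known mainly for planar polarity and for signalling that does not pass through beta-catenin, went the opposite way to the R-spondin receptors. It stood at 33.2, 32.6, 33.1, 33.9 and 31.4 CPM in control, 52.1, 50.2, 54.1, 54.7 and 53.2 CPM with miR-34a-WT and 48.6, 44.3, 44.8 and 44.7 CPM with miR-34a-RS. The lowest microRNA library, at 44.3 CPM, was above the highest control library, at 33.9 CPM, and miR-34a-RS lay between control and miR-34a-WT. FZD6 rose by 0.69 (SE 0.04, adjusted p = 4.27e-12) with miR-34a-WT and by 0.47 (SE 0.05, adjusted p = 1.42e-08) with miR-34a-RS on the log2 scale. It has none of the 4 matches, and its rise with miR-34a-WT was the only one of the 45 that reached 0.5.

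FZD5 was at 27.6, 25.3, 25.2, 25.6 and 25.9 CPM in control and fell by 0.23 (SE 0.06, adjusted p = 0.00165) with miR-34a-WT and by 0.29 (SE 0.06, adjusted p = 3.74e-04) with miR-34a-RS on the log2 scale, with no overlap between control and either group. FZD2 fell with miR-34a-WT, by 0.24 (SE 0.06, adjusted p = 0.00297), while with miR-34a-RS its log2 fold change was -0.14 (SE 0.06, adjusted p = 0.101) and passed only when control replicate 1 was left out (adjusted p = 0.0332). FZD2 overlapped control in both comparisons. FZD3 averaged 39.2 ± 2.82 CPM in control, 36.4 ± 3.699 CPM with miR-34a-WT and 33.9 ± 4.93 CPM with miR-34a-RS (mean ± SD, n = 5, 5 and 4), and only the miR-34a-RS comparison passed, at -0.21 (SE 0.08, adjusted p = 0.0483). That call is not firm, since it was lost in 10 of 16 alternative settings, including without control replicate 2, 3 or 4 and without miR-34a-RS replicate 2, 3 or 5 (adjusted p 0.0955 to 0.183).

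The co-receptors LRP5 and LRP6 and the receptors FZD1, FZD4, FZD7 and FZD8 did not pass in either comparison, with log2 fold changes from -0.16 (FZD4 with miR-34a-RS) to 0.06 (LRP6 with miR-34a-WT). FZD4 carries a 7mer-m8, and its averages were 15.5 ± 1.23 CPM in control, 14.2 ± 1.06 CPM with miR-34a-WT and 13.9 ± 1.61 CPM with miR-34a-RS (mean ± SD, n = 5, 5 and 4). Reads of PRSS23 on the other strand limit what those values say of FZD4. For LRP6, the co-receptor, the 95% interval with miR-34a-WT of -0.04 to 0.16 lies below the change of FZD6 throughout.

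Set per kilobase of exon, so that the receptors can be compared with each other, the 8 Frizzled genes summed to 40.01 ± 1.24 CPM per kilobase in control (mean ± SD, n = 5), 42.5 ± 1.22 with miR-34a-WT (n = 5) and 40.9 ± 1.46 with miR-34a-RS (n = 4). The make-up of that sum shifted while its size moved little. FZD6 was 20.2% of it in control, 30.6% under the unmodified and 27.4% under the abasic duplex. FZD2, the most abundant Frizzled transcript of control cells by this measure, went from 23.04% to 18.4% and 20.5%, and FZD5 from 9.67% to 7.76% and 7.75%. The place of FZD2 rests on the exon lengths used, since in CPM it averaged 19.5 in control, below FZD3 at 39.2. The shares were not tested.

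Genes for making and releasing Wnt ligands moved in both directions. PORCN, the acyltransferase that attaches the lipid without which Wnt proteins are not secreted, was at 14.5, 14.6, 12.8, 14.1 and 15.99 CPM in control, 8.71, 8.39, 9.53, 9.89 and 9.62 CPM with miR-34a-WT and 11.5, 10.1, 11.96 and 11.4 CPM with miR-34a-RS. All 3 groups were separate, with miR-34a-RS between the others. PORCN fell by 0.64 (SE 0.07, adjusted p = 5.66e-08) with miR-34a-WT and by 0.35 (SE 0.07, adjusted p = 4.10e-04) with miR-34a-RS on the log2 scale, with none of the 4 matches in its 3′ UTR. WLS, the carrier that escorts Wnt proteins to the surface, averaged 156 ± 4.24 CPM in control, 146 ± 9.45 CPM with miR-34a-WT and 154 ± 6.41 CPM with miR-34a-RS (mean ± SD, n = 5, 5 and 4) and did not pass against control.

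WNT3, a ligand of the beta-catenin branch, was at 10.4, 11.6, 9.71, 12.1 and 11.6 CPM in control, 14.1, 15.2, 14.4, 15.3 and 14.2 CPM with miR-34a-WT and 15.3, 15.8, 13.8 and 14.03 CPM with miR-34a-RS. Every microRNA library was above the highest control library. WNT3 rose by 0.40 (SE 0.07, adjusted p = 2.16e-05) with miR-34a-WT and by 0.41 (SE 0.07, adjusted p = 4.19e-05) with miR-34a-RS on the log2 scale, and the 2 duplexes differed by 0.01 (95% interval -0.13 to 0.15). WNT5A, the best known ligand outside the beta-catenin branch, averaged 70.1 ± 1.85 CPM in control, 80.4 ± 6.202 CPM with miR-34a-WT and 79.8 ± 7.29 CPM with miR-34a-RS (mean ± SD, n = 5, 5 and 4). It rose by 0.20 (SE 0.06, adjusted p = 0.00581) and 0.19 (SE 0.06, adjusted p = 0.0147), and the second call was lost without miR-34a-RS replicate 1 (adjusted p = 0.0514), the library with the highest value of its group. WNT5B, its paralog, lay between 3.04 and 5.72 CPM over all libraries and did not pass.

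The 3 inhibitors that act outside the cell or at its surface were low or changed little. KREMEN1, a receptor that helps DKK1 remove LRP6, was at 53.9, 61.5, 54.2, 62.7 and 56.4 CPM in control, 47.8, 46.5, 46.3, 50.8 and 48.2 CPM with miR-34a-WT and 51.95, 51.9, 54.2 and 52.8 CPM with miR-34a-RS. It fell by 0.27 (SE 0.05, adjusted p = 8.07e-05) with miR-34a-WT on the log2 scale, and with miR-34a-RS its log2 fold change was -0.13 (SE 0.05, adjusted p = 0.0512), on the other side of the threshold. Without control replicate 1 or 3 the miR-34a-RS value passed too (adjusted p 0.0273 to 0.0437). DKK1, a secreted antagonist of LRP6 with a 7mer-m8, averaged 1.07 ± 0.188 CPM in control, 0.784 ± 0.192 CPM with miR-34a-WT and 1.01 ± 0.271 CPM with miR-34a-RS (mean ± SD, n = 5, 5 and 4), and with so few counts the 95% interval for miR-34a-WT ran from -0.85 to -0.01.

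SFRP1, a secreted protein that binds Wnt ligands, was the scarcest of the 45 per kilobase. Its values were 0.733, 0.7202, 0.799, 0.717 and 0.988 CPM in control, 0.581, 0.627, 0.467, 0.591 and 0.635 CPM with miR-34a-WT and 0.635, 0.4599, 0.631 and 0.467 CPM with miR-34a-RS. No microRNA library overlapped control, but neither test passed, with log2 fold changes of -0.43 (SE 0.18, adjusted p = 0.0824) and -0.50 (SE 0.19, adjusted p = 0.0522). The second passed without miR-34a-RS replicate 1 or 3 (adjusted p 0.0458 to 0.0495).

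In the relay between receptor and destruction complex, none of the 4 genes passed with miR-34a-WT, and 1 fell with miR-34a-RS. The Dishevelled genes DVL1, DVL2 and DVL3 had log2 fold changes between -0.10 (DVL1 with miR-34a-WT) and 0.04 (DVL3 with miR-34a-RS), and the widest of their 95% intervals, for DVL1 with miR-34a-RS, ran from -0.24 to 0.06. DVL1 was also among the most abundant of the 45, at 31.6 CPM per kilobase in control. NKD1, a protein that binds Dishevelled and restrains it, averaged 12.5 ± 0.801 CPM in control, 11.2 ± 1.11 CPM with miR-34a-WT and 10.5 ± 0.549 CPM with miR-34a-RS (mean ± SD, n = 5, 5 and 4). It fell with miR-34a-RS, by 0.25 (SE 0.07, adjusted p = 0.01203), and its value with miR-34a-WT was -0.16 (SE 0.07, adjusted p = 0.0848), so the 2 duplexes fall on either side of the threshold while their own difference did not pass (adjusted p = 0.708). The miR-34a-RS call was lost without control replicate 2 (adjusted p = 0.0572) or miR-34a-RS replicate 1 (adjusted p = 0.0564), and the miR-34a-WT value passed without control replicate 5 or miR-34a-WT replicate 4 (adjusted p 0.0406 to 0.0494).

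In the destruction complex, AXIN2 fell and APC rose with both duplexes. AXIN2, the Axin scaffold that beta-catenin itself induces, was at 12.7, 13.2, 13.3, 13.8 and 12.7 CPM in control, 9.56, 9.25, 9.13, 8.98 and 9.18 CPM with miR-34a-WT and 9.64, 10.1, 10.7 and 9.56 CPM with miR-34a-RS. The values within each group were close, and no microRNA library reached the lowest control library. AXIN2 fell by 0.51 (SE 0.06, adjusted p = 1.37e-07) with miR-34a-WT and by 0.39 (SE 0.06, adjusted p = 1.82e-05) with miR-34a-RS on the log2 scale, and its 3′ UTR holds a 7mer-m8 and a 7mer-A1. AXIN1, the scaffold that is made in most cells whether or not the pathway is active, has none of the 4 matches, averaged 63.9 ± 5.21 CPM in control, 58.9 ± 3.14 CPM with miR-34a-WT and 61.2 ± 4.87 CPM with miR-34a-RS (mean ± SD, n = 5, 5 and 4) and did not pass.

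APC, the scaffold lost in most colorectal cancers, was at 96.6, 88.8, 85.6, 88.7 and 80.6 CPM in control, 109, 99.5, 107, 99.05 and 104 CPM with miR-34a-WT and 111, 98.03, 98.7 and 98.6 CPM with miR-34a-RS. Control replicate 1 was the highest of its group but stayed below all microRNA libraries. APC rose by 0.24 (SE 0.05, adjusted p = 4.91e-04) with miR-34a-WT and by 0.21 (SE 0.05, adjusted p = 0.003605) with miR-34a-RS on the log2 scale. GSK3A, 1 of the 2 GSK3 kinase genes, rose with miR-34a-WT by 0.16 (SE 0.06, adjusted p = 0.0342), a call lost without control replicate 1 or 2 or without miR-34a-WT replicate 3 or 4 (adjusted p 0.0515 to 0.112). With miR-34a-RS its value was 0.13 (SE 0.06, adjusted p = 0.1102). That comparison passed without miR-34a-RS replicate 1 (adjusted p = 0.0374), without the count filter (0.0405) and with the replicate number as a block (0.00925).

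The kinase genes GSK3B and CSNK1A1 and BTRC, which encodes the ubiquitin ligase subunit that recognises phosphorylated beta-catenin, had log2 fold changes from -0.11 (BTRC with miR-34a-RS) to 0.04 (GSK3B with miR-34a-WT) against control. CSNK1A1 passed with miR-34a-RS at -0.11 (SE 0.04, adjusted p = 0.0406), and that call was lost in 13 of 16 alternative settings, among them without control replicate 1, 2, 3 or 4 and without miR-34a-RS replicate 1, 3 or 5 (adjusted p 0.0569 to 0.143). BTRC with miR-34a-RS was at -0.11 (SE 0.04, adjusted p = 0.0572) and passed only without control replicate 5 (adjusted p = 0.0232).

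CTNNB1, which encodes beta-catenin, was the most abundant of the 45 genes, at 56.3 CPM per kilobase in control against 34.8 for WLS, the next. It was at 645, 673, 688, 672 and 677 CPM in control, 742, 753, 751, 754 and 723 CPM with miR-34a-WT and 747, 729, 742 and 734 CPM with miR-34a-RS. The control libraries were all below the 9 microRNA libraries. CTNNB1 rose by 0.15 (SE 0.04, adjusted p = 0.00124) with miR-34a-WT and by 0.14 (SE 0.04, adjusted p = 0.00557) with miR-34a-RS on the log2 scale, which is 10.98% and 9.94% above control. The size of this rise is small beside the falls of its DNA-binding partner LEF1 and of PYGO2, BCL9 and BCL9L.

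LEF1, the DNA-binding partner of beta-catenin with an 8mer in its 3′ UTR, was at 34.2, 31.9, 38.7, 32.9 and 33.6 CPM in control, 17.5, 18.8, 19.4, 17.8 and 16.5 CPM with miR-34a-WT and 16.4, 17.4, 16.8 and 16.1 CPM with miR-34a-RS. The highest microRNA library, at 19.4 CPM, was far below the lowest control library, at 31.9 CPM. LEF1 fell by 0.93 (SE 0.06, adjusted p = 1.93e-12) with miR-34a-WT and by 1.04 (SE 0.06, adjusted p = 1.29e-12) with miR-34a-RS on the log2 scale, the second being the largest fall of the 45 with miR-34a-RS. TCF7, its paralog, has an 8mer as well but passed in neither comparison, with 20.7, 20.9, 19.7, 22.1 and 20.5 CPM in control, 21.2, 21.6, 22.3, 23.1 and 22.2 CPM with miR-34a-WT and 20.7, 19.7, 22.8 and 20.4 CPM with miR-34a-RS. Its log2 fold changes were 0.09 (SE 0.05, adjusted p = 0.197) and 0.01 (SE 0.06, adjusted p = 0.916), with the reads of SKP1 on the opposite strand as the limit named above.

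TCF7L1, the family member best known as a repressor, was at 11.2, 14.7, 13.6, 12.8 and 15.8 CPM in control, 8.401, 7.99, 9.17, 8.55 and 7.88 CPM with miR-34a-WT and 10.2, 9.49, 11.4 and 9.83 CPM with miR-34a-RS. With miR-34a-WT all libraries were below control, and with miR-34a-RS the highest, replicate 3, was above control replicate 1. TCF7L1 fell by 0.69 (SE 0.08, adjusted p = 1.83e-07) with miR-34a-WT and by 0.40 (SE 0.08, adjusted p = 5.06e-04) with miR-34a-RS on the log2 scale, without any of the 4 matches. TCF7L2, the member most used in the intestine, averaged 34.2 ± 2.42 CPM in control, 39.5 ± 2.899 CPM with miR-34a-WT and 38.5 ± 2.91 CPM with miR-34a-RS (mean ± SD, n = 5, 5 and 4) and rose by 0.21 (SE 0.06, adjusted p = 0.00673) and 0.17 (SE 0.06, adjusted p = 0.0361). The miR-34a-RS call was lost without control replicate 1, 2 or 4 or without miR-34a-RS replicate 1 or 3 (adjusted p 0.0577 to 0.124).

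As a family, per kilobase of exon, LEF1 and the 3 TCF genes summed to 16.6 ± 0.877 CPM per kilobase in control (mean ± SD, n = 5), 13.3 ± 0.715 with miR-34a-WT (n = 5) and 13.2 ± 0.687 with miR-34a-RS (n = 4). LEF1 made up 38.5% of that sum in control, 25.2% under the unmodified and 23.6% under the abasic duplex. TCF7L2 went the other way, from 30.5% to 43.996% and 43.2%. LEF1 was thus the leading transcript of the family in control cells and TCF7L2 in both microRNA groups, while TCF7L1 held 18.5%, 14.3% and 17.5%. No test was made of these shares.

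**Figure D3:**
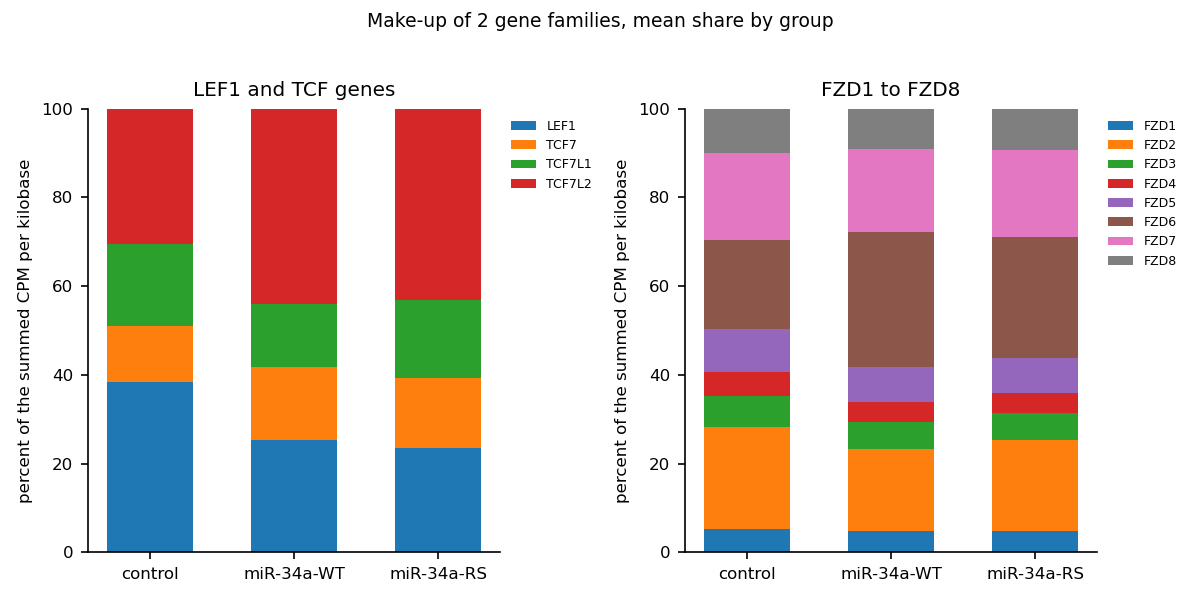
Mean share of each gene (y axis, percent of the family's summed CPM per kilobase) in control, miR-34a-WT and miR-34a-RS, for LEF1 with the TCF genes and for FZD1 to FZD8. The LEF1 share shrinks from 38.5% to 25.2% and 23.6% and the FZD6 share grows from 20.2% to 30.6% and 27.4%.

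Of the 12 nuclear genes among the 45, 6 fell and 2 rose with miR-34a-WT, against 21.3% and 18.9% of all tested genes. With miR-34a-RS 6 fell and 3 rose, against 18.4% and 16.2%. PYGO2, which reads modified histones and binds BCL9, was at 78.3, 96.7, 95.98, 94.1 and 97.2 CPM in control, 57.6, 64.2, 60.8, 62.6 and 58.7 CPM with miR-34a-WT and 58.03, 62.3, 66.01 and 66.4 CPM with miR-34a-RS. Control replicate 1 was well below its group and still above every microRNA library. PYGO2 fell by 0.61 (SE 0.06, adjusted p = 3.09e-09) with miR-34a-WT and by 0.55 (SE 0.06, adjusted p = 6.36e-08) with miR-34a-RS on the log2 scale, with a 7mer-m8 in its 3′ UTR.

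BCL9, the bridge between beta-catenin and Pygopus, was at 70.8, 76.1, 77.4, 77.7 and 67.4 CPM in control, 52.3, 49.1, 56.04, 52.04 and 51.8 CPM with miR-34a-WT and 60.2, 53.9, 59.1 and 58.9 CPM with miR-34a-RS. It fell by 0.50 (SE 0.05, adjusted p = 1.01e-08) with miR-34a-WT and by 0.35 (SE 0.05, adjusted p = 9.39e-06) with miR-34a-RS on the log2 scale, without overlap with control, and the matches it holds are in the coding sequence. BCL9L, its paralog with a pair of 7mer-m8 sites in the 3′ UTR, was at 13.4, 15.6, 13.7, 14.3 and 12.9 CPM in control, 7.63, 9.74, 8.83, 8.798 and 10.1 CPM with miR-34a-WT and 9.73, 10.2, 10.3 and 10.9 CPM with miR-34a-RS. BCL9L fell by 0.63 (SE 0.07, adjusted p = 1.14e-07) and 0.45 (SE 0.08, adjusted p = 4.11e-05), again without overlap. TNIK, a kinase that phosphorylates TCF7L2, averaged 72.3 ± 3.46 CPM in control, 64.7 ± 3.88 CPM with miR-34a-WT and 63.9 ± 2.32 CPM with miR-34a-RS (mean ± SD, n = 5, 5 and 4) and fell by 0.16 (SE 0.05, adjusted p = 0.00896) and 0.18 (SE 0.05, adjusted p = 0.00777). The first TNIK call was lost without control replicate 2 (adjusted p = 0.0635) or miR-34a-WT replicate 4 (adjusted p = 0.0677), and the second without control replicate 2 (adjusted p = 0.0514).

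Among nuclear proteins that oppose beta-catenin, TLE1, a Groucho corepressor, rose with miR-34a-RS by 0.20 (SE 0.06, adjusted p = 0.00885), a call lost without miR-34a-RS replicate 3 (adjusted p = 0.05404). With miR-34a-WT its value was 0.11 (SE 0.06, adjusted p = 0.121). TLE3, a related corepressor, was at -0.09 (SE 0.05, adjusted p = 0.126) and -0.09 (SE 0.05, adjusted p = 0.159) and did not pass. CTNNBIP1, which blocks the contact of beta-catenin with TCF proteins and has a pair of 7mer-m8 sites, averaged 18.3 ± 1.44 CPM in control, 16.7 ± 0.763 CPM with miR-34a-WT and 16.8 ± 0.623 CPM with miR-34a-RS (mean ± SD, n = 5, 5 and 4). Its log2 fold changes were -0.12 (SE 0.06, adjusted p = 0.0953) and -0.12 (SE 0.06, adjusted p = 0.153), and the first passed without control replicate 1 (adjusted p = 0.0255).

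Set against the seed matches, the 13 genes with an 8mer or 7mer-m8 in the 3′ UTR included 7 that fell and none that rose with each duplex. The 7 are not the same genes in both: LGR4, LGR5, LEF1, AXIN2, BCL9L and PYGO2 fell with both, KREMEN1 passed only with miR-34a-WT and NKD1 only with miR-34a-RS. In the main fit the difference between duplexes did not pass for either (adjusted p = 0.229 and 0.708). With same-numbered libraries of the duplexes taken as pairs, a fit described below, KREMEN1 passed (adjusted p = 0.00164) and NKD1 did not (adjusted p = 0.788). Among all 2413 tested genes with such a match, 45.5% fell and 13.6% rose with miR-34a-WT, and 41.3% fell and 11.9% rose with miR-34a-RS. The median over the 13 was -0.43 for the unmodified and -0.25 for the abasic duplex, beside -0.15 and -0.13 over the 2413. The 6 of the 13 that did not pass with miR-34a-WT were RNF43, FZD4, DKK1, NKD1, TCF7 and CTNNBIP1.

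Of the 22 genes without a match, 5 fell with miR-34a-WT (FZD2, PORCN, TCF7L1, BCL9 and TNIK) and 7 rose, which makes all 7 rises of that comparison genes without a 6mer. Among all tested genes that rose with miR-34a-WT and have a 3′ UTR, 74.3% had no 6mer either. With miR-34a-RS, 4 of the 22 fell (PORCN, TCF7L1, BCL9 and TNIK) and 6 rose, and TLE1, with a 6mer, was the seventh riser. Over all 8831 tested genes without a match, 17.3% fell and 27.1% rose with miR-34a-WT, and 14% fell and 23.1% rose with miR-34a-RS.

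**Figure D4:**
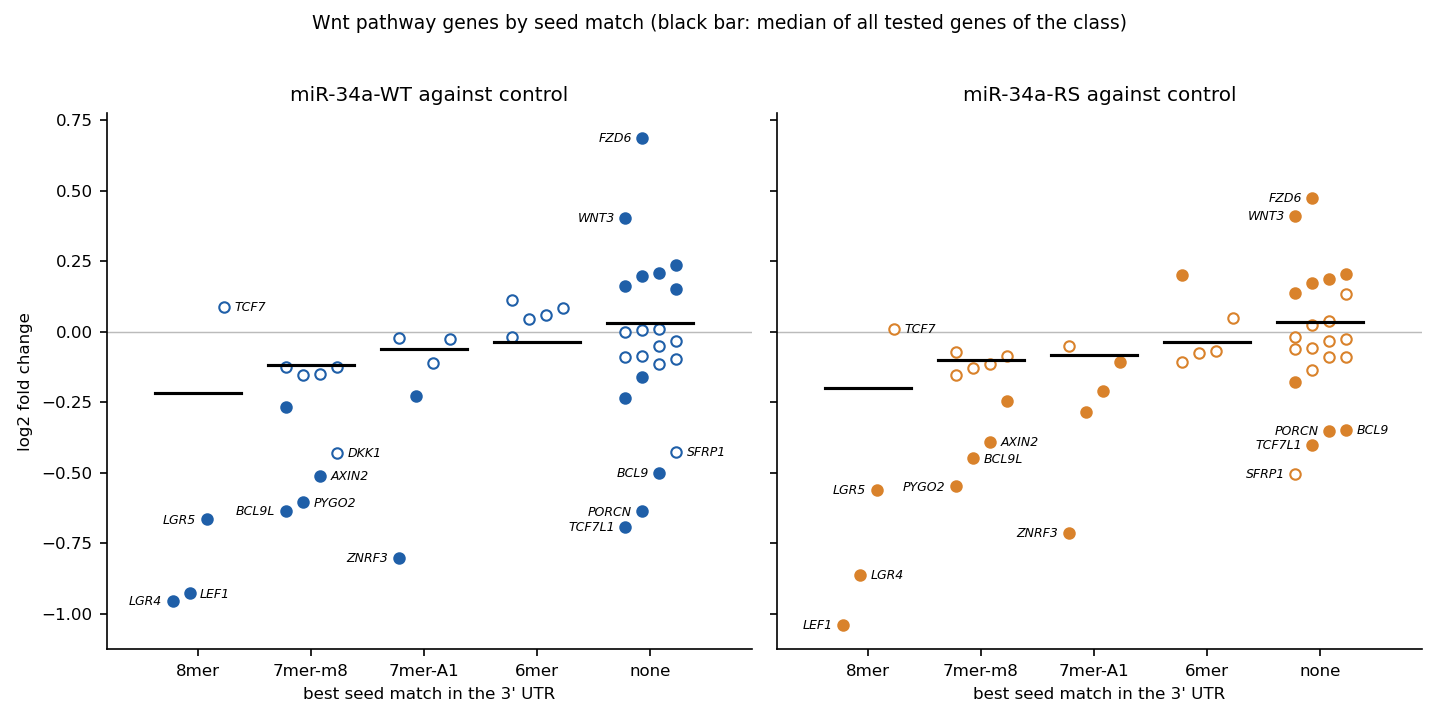
Log2 fold change of the 45 genes (y axis) by the longest seed match in the 3′ UTR (x axis), for miR-34a-WT (left) and miR-34a-RS (right) against control; filled points passed the test, and black bars are the medians of all tested genes of the class. LGR4, LGR5 and LEF1 lie far below the 8mer median and TCF7 above it, and the rises of at least 0.3 are in the class without a match.

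Between the duplexes themselves 1 of these genes passed. FZD6 was lower with the abasic duplex than with the unmodified one, by 0.21 (SE 0.05, adjusted p = 0.0145) on the log2 scale, which is 2.22% of the 45, against 1.56% of all tested genes (0.535% lower and 1.03% higher). The 2 groups did not overlap for 7 of the 45, against 4.81% of all tested genes. All 4 miR-34a-RS libraries were below the lowest miR-34a-WT library for FZD6 (48.6 against 50.2 CPM). The call was lost without the count filter (adjusted p = 0.0643). It was also lost without miR-34a-RS replicate 2, 3 or 5 or without miR-34a-WT replicate 3 or 4 (adjusted p 0.0561 to 0.0713). PORCN was higher with miR-34a-RS by 0.28 (SE 0.07, adjusted p = 0.0525) and TCF7L1 by 0.29 (SE 0.09, adjusted p = 0.107), and the groups did not overlap for either, but neither passed. PORCN passed in 8 of 17 alternative settings. They included the DESeq2 Wald test (adjusted p = 0.018) and the fits without miR-34a-RS replicate 1 or 2 (adjusted p 0.04201 to 0.0477). TCF7L1 passed without the count filter (adjusted p = 0.0376) and in the blocked fits described below.

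Same-numbered libraries of the 2 duplexes deviated from their group means together, which makes the replicate number a pairing here, and the fit with the number as a block called 9 of the 45 genes, against 13.3% of the 17796 genes tested in that fit. With the block, PORCN was higher with miR-34a-RS by 0.31 (adjusted p = 0.000461), TCF7L1 by 0.30 (0.00119), KREMEN1 by 0.16 (0.00164), BCL9 by 0.15 (0.00273), TLE1 by 0.10 (0.0454) and WLS by 0.09 (0.0342). FZD6, GSK3B and BTRC were lower, with log2 fold changes of -0.20 (adjusted p = 0.000146), -0.13 (0.00379) and -0.10 (0.0447). A blocked fit over all 14 libraries, added after the data were seen, called 6 of the 9, without TLE1, WLS and BTRC, against 6.84% of all tested genes. By mean CPM, PORCN, TCF7L1, KREMEN1, BCL9, FZD6 and WLS were nearer to control with the abasic duplex, and the other 3 genes were farther from it. GSK3B averaged 96.7 CPM in control, 99.7 CPM with miR-34a-WT and 92.3 CPM with miR-34a-RS. The TLE1 means were 69.8, 75.3 and 80.2 CPM in the same order, and those of BTRC 63.4, 62.7 and 58.8 CPM.

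None of the 4 genes with an 8mer passed between the duplexes. For LGR4 the difference was 0.09 (95% interval -0.01 to 0.20), for LEF1 -0.11 (-0.24 to 0.02) and for TCF7 -0.08 (-0.19 to 0.04), beside the LGR5 value given above. LEF1 thus lay lower with the abasic duplex and LGR4 and LGR5 higher, with every interval spanning 0 in this fit. ZNRF3 differed by 0.09 (-0.02 to 0.19), AXIN2 by 0.12 (-0.01 to 0.25), PYGO2 by 0.06 (-0.07 to 0.18) and BCL9L by 0.19 (0.02 to 0.35), and none passed. With the replicate block the intervals were narrower, and those of LEF1 (-0.22 to -0.01, adjusted p = 0.164), ZNRF3 (0.0025 to 0.18, adjusted p = 0.1796) and BCL9L (0.05 to 0.32, adjusted p = 0.0613) no longer spanned 0, though none passed after adjustment. The blocked intervals of LGR4 (-0.01 to 0.17), LGR5 (-0.1021 to 0.26) and TCF7 (-0.16 to 0.04) still spanned 0. Without the block, CTNNB1 was the most tightly measured, at -0.01 (-0.09 to 0.06).

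**Figure D5:**
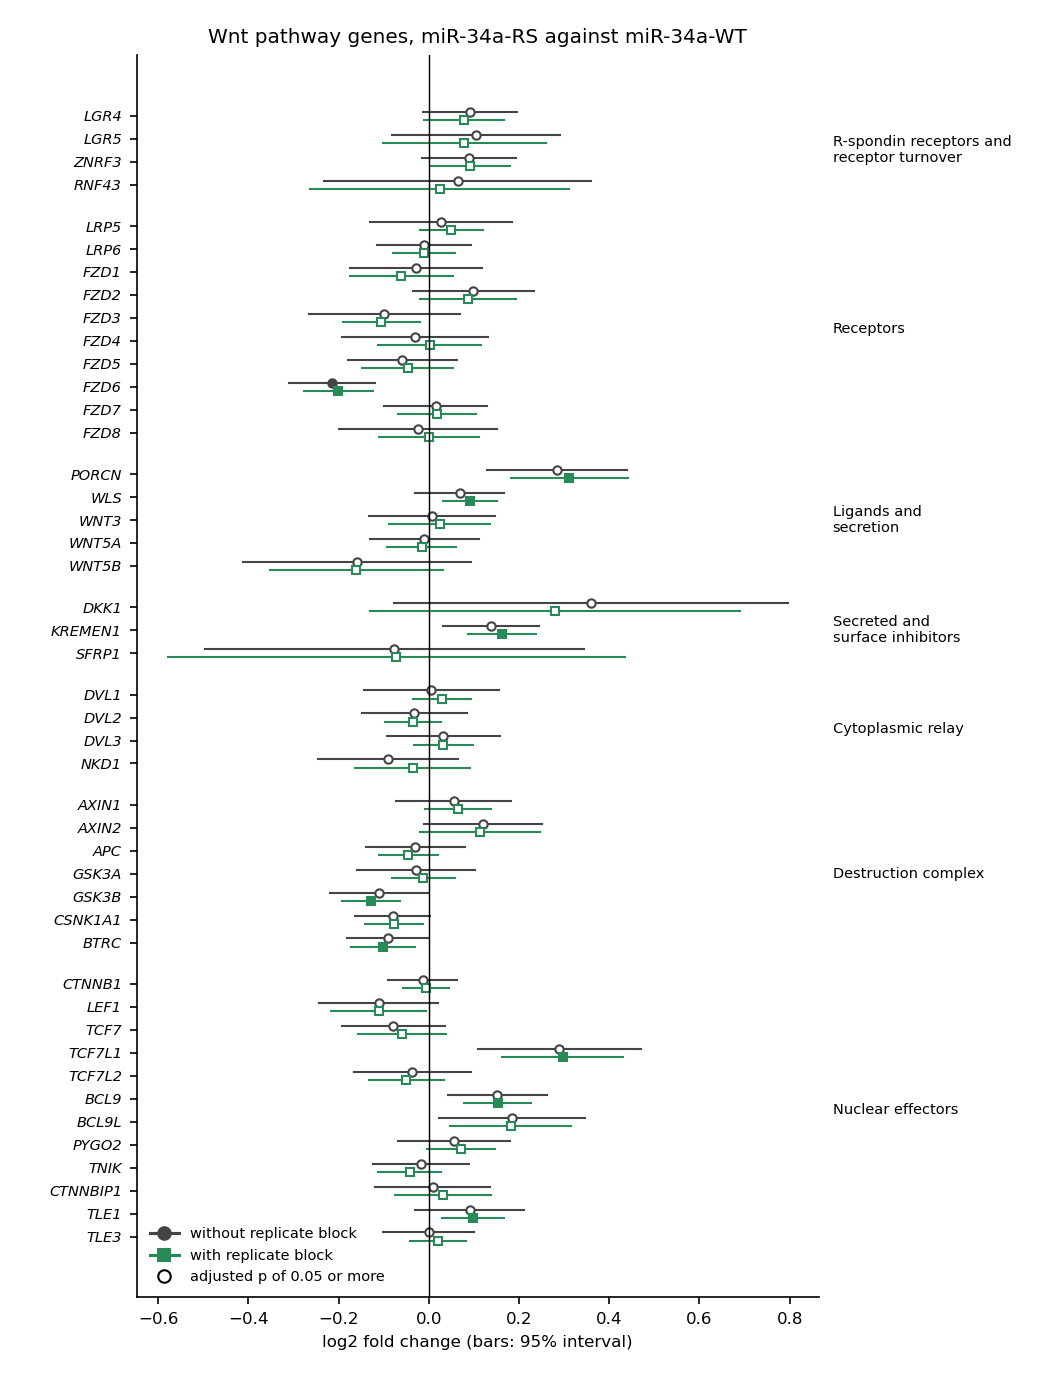
Log2 fold change of miR-34a-RS against miR-34a-WT (x axis) for the 45 genes by role, without (grey circles) and with (green squares) the replicate number as a block; bars are 95% intervals and filled points passed the test. FZD6 passes in both fits, and PORCN and TCF7L1 lie to the right with narrower intervals under the block.

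Outside the 45, 128 further genes of the pathway were listed by role, and 101 had enough counts to be tested. With miR-34a-WT 40 of them fell and 26 rose, 65.3% called, and with miR-34a-RS 33 fell and 22 rose, 54.5% called. The backgrounds were 40.2% and 34.6% of all tested genes, and 52.1% and 45% of those with a mean of at least 5 CPM. The median log2 fold changes of the 101 genes were -0.04 and -0.02. The counts by role below stand beside 21.3% lower and 18.9% higher among all tested genes with miR-34a-WT, and 18.4% and 16.2% with miR-34a-RS. Of the other ligands and R-spondins 6 of 9 tested genes fell with the unmodified duplex, 4 did with the abasic one, and none rose. WNT9A, with an 8mer, had log2 fold changes of -0.62 and -0.64 with miR-34a-WT and miR-34a-RS, WNT11 of -0.51 and -0.28 and WNT2B of -0.45 and -0.20, the last not passing with miR-34a-RS (adjusted p = 0.1500). The WNT2B values are uncertain, since ST7L, with exons on the opposite strand, has counts equal to 613% of its own. Among the further genes named below the same limit holds for CCND1 (LTO1, 235%), CBY1 (16.1%) and TRABD2A, whose 13 shared bases lie in TMSB10 (9793%). The WNT11 call with miR-34a-RS was lost in 13 of 16 settings, among them without control replicate 2, 3, 4 or 5 or miR-34a-RS replicate 1, 3 or 5 (adjusted p 0.0503 to 0.172).

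Among 14 tested receptors and co-receptors outside the list, 7 fell and 2 rose with miR-34a-WT and 6 fell and 1 rose with miR-34a-RS. The co-receptor RECK, with an 8mer, fell (-0.80 and -0.88), as did the heparan sulphate proteoglycan SDC1, with a 7mer-m8 (-1.05 and -1.04). The Wnt-binding kinase-like receptor RYK, with a 6mer, rose (0.52 and 0.48). Of 8 further secreted and surface inhibitors, against 21.3% and 18.4% lower among all tested genes, 6 fell with the unmodified duplex and 4 with the abasic one. They included TRABD2A (-1.14 and -0.65) and TRABD2B (-0.50 and -0.57), proteases that inactivate Wnt ligands, and SOSTDC1 (-0.88 and -0.73).

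The 26 further cytoplasmic regulators were divided, with 6 falls and 9 rises with miR-34a-WT and 6 falls and 8 rises with miR-34a-RS. AMER1, a membrane anchor for APC with an 8mer and 3 sites of the 7mer-m8 class, fell from 45.7 ± 1.64 CPM (mean ± SD, n = 5) by 1.32 and 1.30 on the log2 scale, more than any of the 45. NKD2, the paralog of NKD1 with an 8mer, had log2 fold changes of -0.75 and -0.33 and stood higher under the abasic than the unmodified duplex by 0.42 (adjusted p = 0.00395). DACT3, a Dishevelled-binding protein, rose by 1.03 and 1.12 and its 3′ UTR holds a 7mer-m8.

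Of 20 tested nuclear regulators outside the list, 12 rose and 3 fell with miR-34a-WT, against 18.9% higher and 21.3% lower among all tested genes. With miR-34a-RS 10 rose, 2 fell and 8 did not pass, against 16.2% and 18.4%. CBY1, an inhibitor of beta-catenin, rose by 0.57 and 0.52, XIAP by 0.48 and 0.51 and CDC73 by 0.46 and 0.39 on the log2 scale. The 3′ UTR of CBY1 holds a 7mer-m8 and that of XIAP a 6mer, though both genes rose. The planar polarity branch of 12 genes had 4 falls and 1 rise in each comparison, with CELSR3 at -0.78 and -0.69, DAAM1 at -0.66 and -0.75 and CELSR2 at -0.32 and -0.25.

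Of 12 tested genes listed as reported Wnt targets in other cells, 8 fell and 2 rose with miR-34a-WT, and 7 fell and 2 rose with miR-34a-RS, beside the same shares over all tested genes. CCND1, the cyclin D1 gene, had log2 fold changes of -0.92 and -1.23, MYC of -0.30 and -0.32 and TNFRSF19 of 0.69 and 0.53. CCND1 was the only gene of the 101 that passed as lower under the abasic duplex than under the unmodified one, by 0.31 (adjusted p = 0.0401). That call was lost when any of miR-34a-RS replicates 1, 2, 3 and 5 or miR-34a-WT replicates 2, 3, 4 and 5 was left out (adjusted p 0.0624 to 0.111). CCND1 carries a 7mer-A1 of its own, and MYC, which fell, and TNFRSF19, which rose, each carry a 6mer. Of the 7 genes among the 45 named above as activated by beta-catenin, AXIN2, LEF1, LGR5 and ZNRF3 fell with both duplexes, NKD1 fell with miR-34a-RS, and RNF43 and DKK1 passed with neither. That is 4 and 5 of 7, beside 21.3% and 18.4% of all tested genes. All 7 also hold a seed match in the 3′ UTR, and of all tested genes with any of the 4 matches 38.6% and 36.1% fell. A part of beta-catenin in these falls was not tested.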

How the data were processed

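The values analysed were raw read counts per gene from bulk RNA sequencing (kit TruSeq RNA v2, as the labels' protocols state), which the authors deposited in 1 table (63140 genes, 14 libraries). The submitters' processing notes name STAR 2.7.11a, Subread 2.0.3 with featureCounts, edgeR 3.42.4 and build GRCh38; the annotation release and the strand setting of the counting are not given in the sources used here. Of the gene identifiers, 62541 had a symbol, and the 58126 found in GENCODE 29 held 99.7% of the counts.

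Tests used edgeR 4.0.16 (R 4.3.3; TMM factors, filterByExpr by group, glmQLFit with robust dispersion and glmQLFTest) in 1 fit of 3 group means over all 14 libraries, with Benjamini-Hochberg adjustment over 18321 genes and a threshold of 0.05. Levels are CPM scaled by TMM, and between genes CPM per kilobase of GENCODE 29 exon union. Totals of 22.24 to 36.26 M counts and a common coefficient of variation of 0.0615 between libraries set the precision. Counts of 18321 genes with 200 changed were also simulated. Genes changed 1.5 times were recovered at 60% for miR-34a-WT against control, 62% for miR-34a-RS against control and 58% between the 2 duplexes. In the same order 7, 13 and 4 unchanged genes were called. In the data, 7373 genes were called with miR-34a-WT against control, 6346 with miR-34a-RS against control and 286 between the duplexes. The cut-off after adjustment depends on how many genes change, so the 60% and 62% are not the power of the comparisons against control. DESeq2 1.42.0, other scalings, other filters, only the groups compared, a replicate block and leaving out each library were the alternatives. Seed matches were searched in 1 transcript per gene, that with the longest 3′ UTR, of 20 bases or more.

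The labels number replicates but do not say what a number marks. Over 11259 genes, deviations from the group mean of same-numbered libraries correlated at 0.37 to 0.72 between the 2 duplexes (4 pairs; mean 0.56, against -0.13 for other pairs), so the blocked fit is given beside that comparison. No 2 replicates agreed within sampling noise. The 45 genes and the lists were chosen with earlier results of these data known. Each of the 45 that passed in a comparison or has an 8mer or 7mer-m8 is named with values, the others by ranges, and of each other list up to 3 genes with the smallest adjusted p and a mean of at least 1 CPM.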

Additional observations from a re-analysis of the deposited data

Results flagged for a closer look

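A library was marked when its gap to the nearest other library of its group was large for the group's range (Dixon's criterion), which chance does in about 1 of 20 groups. Of 135 combinations of gene and group 10 were marked, against 6.75 expected. In control, replicate 1 was apart for FZD5 (27.6 CPM, the highest), WNT5B (3.04 CPM, the lowest) and PYGO2 (78.3 CPM, the lowest). Control replicate 2 was highest for WLS (163 CPM) and control replicate 4 for CSNK1A1 (123 CPM). With miR-34a-WT, replicate 5 was highest for WNT5B (5.72 CPM) and replicate 3 for TCF7L2 (44.6 CPM). With miR-34a-RS, replicate 1 was highest for FZD6 (48.6 CPM) and APC (111 CPM; the next was 98.7) and lowest for DVL1 (96.4 CPM). PYGO2 fell in every setting tried, those without control replicate 1 included, and APC rose in every setting, those without miR-34a-RS replicate 1 included.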

How the results depend on the processing

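No call changed direction in any setting. With miR-34a-WT against control 19 of the 21 calls held in all 17 alternative settings, with miR-34a-RS against control 15 of 22 in all 16, and between the duplexes the 1 call was lost in 6 of 17. Leaving out 1 library at a time gave 19 to 22, 17 to 23 and 0 to 2 called genes. Between the duplexes, 2 of the 45 were called with upper-quartile factors, without a filter, with at least 1 CPM in 4 samples and with the DESeq2 Wald test. Without a filter these were PORCN and TCF7L1, and in the other settings FZD6 and PORCN. The replicate block called 9, and the block over all 14 libraries 6. The block called 28 of the 45 for miR-34a-WT against control and 22 for miR-34a-RS against control. The share of all tested genes called in those 2 fits was not counted, so these counts have no background. For miR-34a-WT the block added WLS, DVL1, NKD1, AXIN1, CTNNBIP1, TLE1 and TLE3 to the main calls (adjusted p 0.0105 to 0.0486). For miR-34a-RS it added GSK3A (adjusted p = 0.00925) and lost CSNK1A1 (adjusted p = 0.115). In those 2 comparisons the number was not taken as a pairing, since not every same-numbered pair correlated at over 0.1: the correlations ran from -0.16 to 0.56 (mean 0.29, against -0.07 for other pairs) and from -0.0015 to 0.48 (mean 0.27, against -0.07), and 3 of 5 and 2 of 4 libraries correlated best with their own number. Same-numbered libraries were still closer on average than others, and the main calls against control take no account of that. Searching every annotated 3′ UTR in place of the longest also gave 13 genes with an 8mer or 7mer-m8. Precision was limited for the scarce genes SFRP1, DKK1 and RNF43, and SFRP1 gave no value with at least 1 CPM in 4 samples.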
